A study of Mus musculus with 7 samples.

Results

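Intergenic accessible sites far from any start of transcription were examined in WT and Smad2/3 DKO EpiLCs. A site was a member when its midpoint lay on an autosome, inside no curated RefSeq transcript, and over 50 and up to 500 kb from the nearest transcription start site (TSS). Of the 75880 sites in the deposited ATAC-seq table, 73736 were autosomal and 15561 of these (21.1%) were members. The choice used position alone, so the accessibility values took no part in it.

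ATAC-seq measures open chromatin with the Tn5 transposase, which inserts sequencing adapters where DNA is not covered by nucleosomes. EpiLCs, epiblast-like cells that model the primed state after implantation, were obtained from naive ESCs grown for 48 h in activin A at 20 ng/ml and Fgf2 at 12 ng/ml. Nuclei of 75000 cells per reaction were used, in 2 technical replicates, and 100 ng of WT genomic DNA treated with Tn5 was the control. Each genotype had 3 separate differentiations of 1 clone, CCE for WT and KT15.1F6 for Smad2/3 DKO, both of 129/Sv//Ev background. The DKO cells carried the older targeted allele Smad2 tm1Rob and a CRISPR deletion that takes in the promoter of Smad3. With 1 clone per genotype, differences between clones and between genotypes cannot be told apart. The table lists 1 value per site and genotype, the log2 mean of normalized reads over the 3 differentiations, called the concentration. No value per library was given, so no spread between differentiations, depth or test stands behind the differences below, and each is a description of these values. At the targeted Smad3 promoter the concentration was 5.42 in WT and -0.10 in DKO, the lowest value listed for DKO cells. At the Smad2 promoter it was 8.35 and 8.28. The part of Smad2 that its allele removes is not given in the sources used here, so this value does not check the label.

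Distal enhancers are bound by transcription factors and raise transcription of genes that can lie far along the chromosome, often past nearer genes. Activin and Nodal receptors phosphorylate Smad2 and Smad3, which enter the nucleus with Smad4 and reach enhancers together with partners that recognise longer DNA sequences, among them the forkhead factor FoxH1 and, in pluripotent cells, Oct4. In the early embryo this pathway maintains the epiblast and, at high levels, directs formation of mesendoderm. The cells carried open promoters of Pou5f1 (7.71 in WT and 7.72 in DKO), Sall4, Fgf5, Pou3f1, Dnmt3b and Sox2. Of the 8 defining markers of pluripotent and epiblast-like cells, 6 had a site within 1 kb of a TSS, at 5.66 to 7.71 in WT and 5.63 to 7.72 in DKO, and none was listed there for Otx2 and Tdgf1.

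The members with the most extreme differences are shown first as sequence, in GRCm38 (mm10), plus strand, 300 bases around the midpoint. The first 3 had the lowest DKO minus WT difference among members with a mean concentration of at least 6, the next 3 the highest, and the last had the highest mean concentration of all members. Capitals mark matches, on either strand, to the strings of the POU octamer, FoxH1, Otx2, forkhead, Tead, Klf, Esrrb, the Smad palindrome and CTCF.
Tmtc1 site, chr6:148516681-148516980: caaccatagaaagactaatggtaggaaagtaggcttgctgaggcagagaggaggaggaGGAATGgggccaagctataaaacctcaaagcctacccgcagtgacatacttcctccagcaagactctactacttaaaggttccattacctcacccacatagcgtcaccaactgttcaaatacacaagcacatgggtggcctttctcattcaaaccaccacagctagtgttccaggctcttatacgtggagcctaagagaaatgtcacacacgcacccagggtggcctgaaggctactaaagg
Gm12069 site, chr11:25240751-25241050: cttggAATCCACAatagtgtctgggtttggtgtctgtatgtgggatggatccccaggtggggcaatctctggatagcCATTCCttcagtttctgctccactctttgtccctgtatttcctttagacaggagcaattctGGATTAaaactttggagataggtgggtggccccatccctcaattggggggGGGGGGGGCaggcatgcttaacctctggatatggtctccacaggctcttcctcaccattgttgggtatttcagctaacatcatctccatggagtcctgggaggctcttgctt
Sema3a site, chr5:13189036-13189335: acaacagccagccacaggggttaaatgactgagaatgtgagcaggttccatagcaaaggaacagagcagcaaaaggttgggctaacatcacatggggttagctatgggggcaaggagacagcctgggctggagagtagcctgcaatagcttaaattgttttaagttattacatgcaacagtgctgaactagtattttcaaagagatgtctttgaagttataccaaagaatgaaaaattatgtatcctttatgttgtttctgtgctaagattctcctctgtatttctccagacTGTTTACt
4933402J10Rik site, chr5:60231476-60231775: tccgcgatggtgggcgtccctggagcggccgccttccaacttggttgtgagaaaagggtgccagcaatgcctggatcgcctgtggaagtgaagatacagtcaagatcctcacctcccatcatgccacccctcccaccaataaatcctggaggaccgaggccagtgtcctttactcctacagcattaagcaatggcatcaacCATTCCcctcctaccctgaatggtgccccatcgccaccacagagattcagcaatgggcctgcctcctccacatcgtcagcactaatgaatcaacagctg
Slco1b2 site, chr6:141577221-141577520: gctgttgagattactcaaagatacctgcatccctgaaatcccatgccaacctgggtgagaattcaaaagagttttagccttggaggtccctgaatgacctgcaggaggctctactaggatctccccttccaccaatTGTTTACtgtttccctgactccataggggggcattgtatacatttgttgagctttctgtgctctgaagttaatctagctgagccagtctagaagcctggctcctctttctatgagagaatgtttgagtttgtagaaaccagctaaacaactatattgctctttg
Gm16070 site, chr1:17931991-17932290: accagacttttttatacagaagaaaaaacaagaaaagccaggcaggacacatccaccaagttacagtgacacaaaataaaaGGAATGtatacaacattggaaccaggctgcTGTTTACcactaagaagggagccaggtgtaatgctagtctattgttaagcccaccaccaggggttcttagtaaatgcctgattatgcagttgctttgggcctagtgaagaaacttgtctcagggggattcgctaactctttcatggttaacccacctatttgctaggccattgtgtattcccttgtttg
Gm8579 site, chr6:3183026-3183325: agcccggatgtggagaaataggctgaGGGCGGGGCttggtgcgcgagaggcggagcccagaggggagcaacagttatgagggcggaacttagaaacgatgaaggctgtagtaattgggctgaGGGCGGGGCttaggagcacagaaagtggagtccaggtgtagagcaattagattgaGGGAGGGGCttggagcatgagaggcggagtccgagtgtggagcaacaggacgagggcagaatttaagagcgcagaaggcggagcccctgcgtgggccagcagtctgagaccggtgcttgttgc

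Of members with a mean concentration of at least 4 that hold the FoxH1 string TGTGGATT, 31.2% were lower in DKO past 1.5-fold, and of those without it 17.1%. The next set shows the 3 members with the lowest difference that hold it within 300 bases, and 1 that holds the POU octamer ATGCAAAT, both among members with a mean concentration of at least 6 and with less than 50% of masked repeat. Capitals mark that string or its reverse complement. These 4 were chosen after their values were seen.
Lrrc3b site, chr14:15773506-15773805: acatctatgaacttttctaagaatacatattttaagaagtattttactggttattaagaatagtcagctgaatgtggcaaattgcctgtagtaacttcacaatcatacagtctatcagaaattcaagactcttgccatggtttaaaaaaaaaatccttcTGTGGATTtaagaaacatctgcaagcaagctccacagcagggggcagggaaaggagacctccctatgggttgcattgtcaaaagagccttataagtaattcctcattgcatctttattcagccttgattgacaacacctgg
Robo1 site, chr16:73120781-73121080: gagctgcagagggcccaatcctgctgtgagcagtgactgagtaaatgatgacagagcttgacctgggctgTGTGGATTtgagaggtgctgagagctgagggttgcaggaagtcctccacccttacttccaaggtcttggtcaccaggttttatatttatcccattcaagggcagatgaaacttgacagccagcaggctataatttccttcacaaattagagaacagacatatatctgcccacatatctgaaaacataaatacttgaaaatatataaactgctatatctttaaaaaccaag
9530026F06Rik site, chr1:61480616-61480915: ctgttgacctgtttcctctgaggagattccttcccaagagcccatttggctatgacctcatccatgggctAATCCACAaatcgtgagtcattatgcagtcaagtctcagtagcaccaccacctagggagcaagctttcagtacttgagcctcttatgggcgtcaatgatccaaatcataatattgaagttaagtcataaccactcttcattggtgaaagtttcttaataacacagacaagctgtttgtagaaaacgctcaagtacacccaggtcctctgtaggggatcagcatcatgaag
Mir146 site, chr11:43281831-43282130: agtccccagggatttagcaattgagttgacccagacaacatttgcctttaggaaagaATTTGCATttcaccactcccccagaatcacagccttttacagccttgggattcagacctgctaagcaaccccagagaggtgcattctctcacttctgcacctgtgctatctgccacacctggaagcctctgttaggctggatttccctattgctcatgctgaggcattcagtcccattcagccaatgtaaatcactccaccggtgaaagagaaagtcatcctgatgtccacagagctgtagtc

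Members were modestly accessible and, on the whole, a little less so in DKO cells. The median concentration was 4.84 in WT (quartiles 4.08 and 5.75) and 4.69 in DKO (3.91 and 5.59). The DKO minus WT difference had a median of -0.14 on the log2 scale, with quartiles of -0.49 and 0.20. It was below 0 at 61.1% of members and above 0 at 38.1%. Over all autosomal sites the median difference was -0.08 and 57.5% were below 0. Within 1 kb of a TSS, 14461 sites had a median difference of 0.01 and a narrower middle range, from -0.16 to 0.18. The members' values in both genotypes had a Pearson correlation of 0.86 across 15561 sites, which share their libraries.

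**Figure D1:**
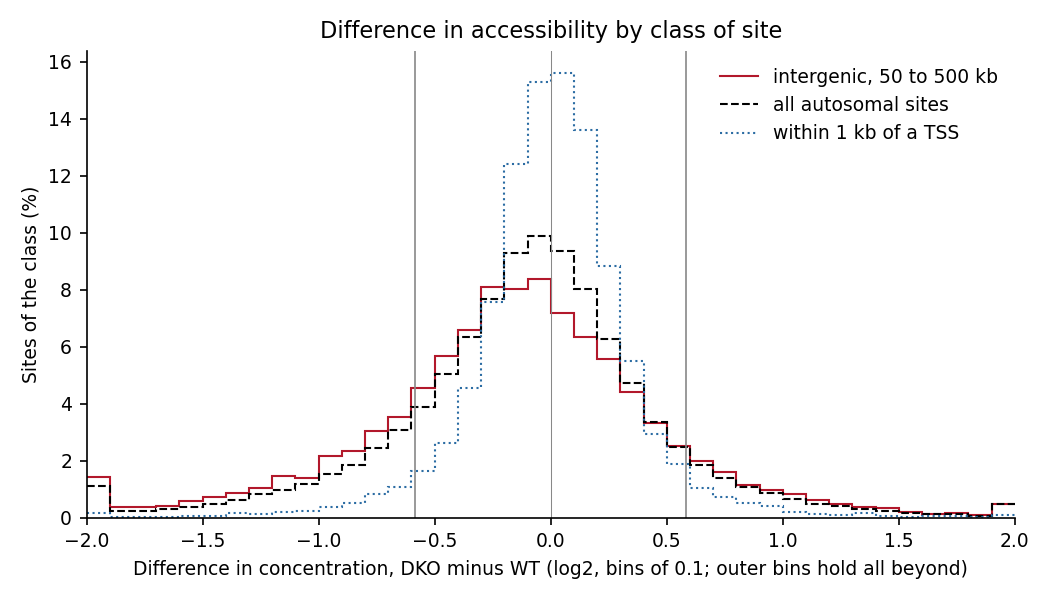
Percent of sites (y axis) by DKO minus WT difference in concentration (x axis, log2, bins of 0.1) for members, all autosomal sites and sites within 1 kb of a TSS, with grey lines at 0 and at 1.5-fold in either direction. The members' curve is broader than that of sites near a TSS and lies to the left of it, with medians of -0.14 and 0.01.

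A difference past 1.5-fold (0.585 on the log2 scale) at a mean concentration of at least 4 was counted as lower or higher in DKO. Of the members, 11810 (75.9%) reached this concentration, and these are the counted members of every share below. In this set, 2061 members (17.5%) were lower in DKO and 760 (6.44%) were higher, beside 12.4% and 5.45% of all autosomal sites. Of the members past this fold 73.1% were lower, and of all autosomal sites past it 69.6%. Past 2-fold, 727 members (6.16%) were lower and 196 (1.66%) were higher, against 3.96% and 1.28% of all autosomal sites. Promoters of fibroblast markers, read as another cell type, also stood below their WT values. Of 10 such genes 6 had a promoter site, 5 of the 6 had a DKO value below that of WT (Dcn 8.36 and 7.11, Thy1 5.29 and 4.51 in WT and DKO), and Twist2 was higher at 4.08 and 4.68. Summed on the linear scale these sites gave 734 normalized reads in WT and 467 in DKO, while the defining pluripotency markers gave 674 and 732. Dcn and Col1a2 (7.81 in WT and 7.57 in DKO) had the highest values of the 6. Such promoter values do not measure the number of any cell type. The paper states that its ESCs were grown without feeder cells. Whether fibroblasts were present, or had a part in the members' differences, was not tested.

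The share of lower members was larger in the ranges farther from a TSS. Of the counted members 50 to 75 kb away 15.7% were lower, in the next ranges 16.4% (75 to 100 kb), 17.1% (100 to 150 kb) and 17.8% (150 to 200 kb), and beyond these 19.5% (200 to 300 kb) and 18.9% (300 to 500 kb). The share of higher members showed no such order, and lay between 5.79% and 6.84%. All autosomal sites in the same ranges, those inside transcripts included, had like shares, with 15.6% lower at 50 to 75 kb and 20.0% at 300 to 500 kb. Intergenic sites nearer to genes, at 5 to 50 kb, were lower at 12.6% and higher at 6.81% of those counted, and the 2575 intergenic sites over 500 kb away were lower at 22.8% and higher at 6.47%. Members lay at a median of 136836 bp from the TSS, 52.7% of them upstream of it. The lower members lay at a median of 145403 bp, the higher at 137421 bp and those within 1.5-fold at 132525 bp.

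**Figure D2:**
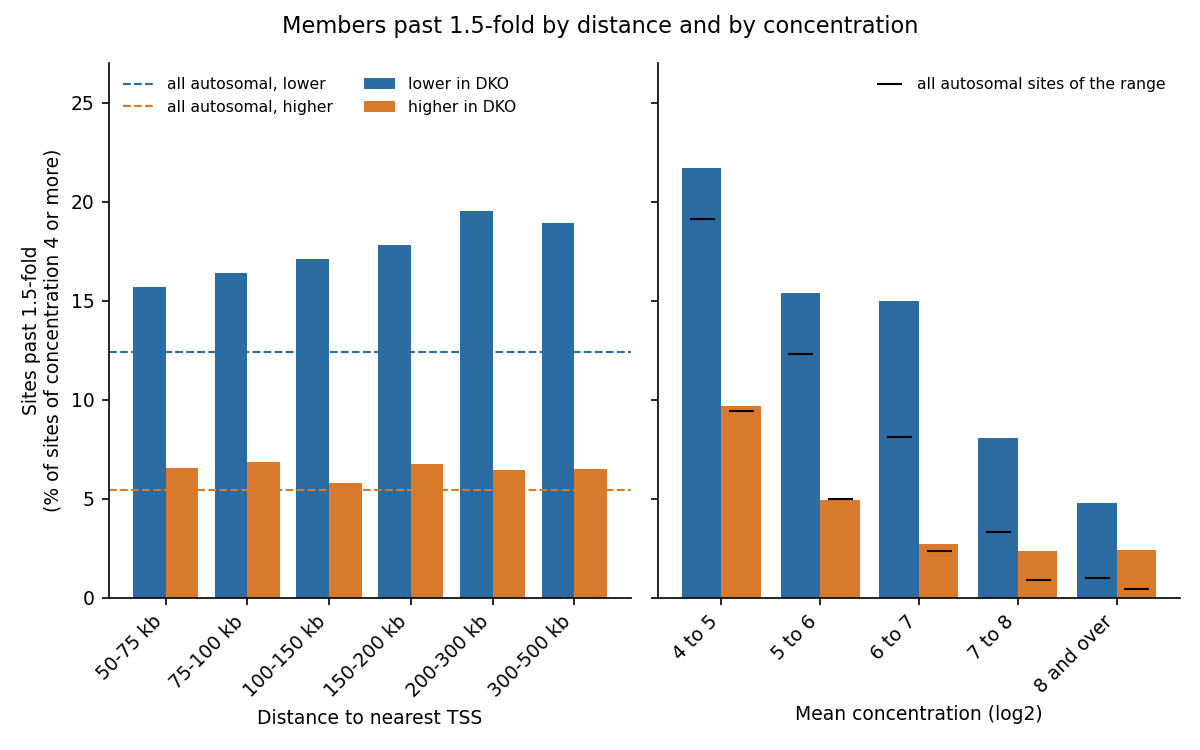
Percent of members past 1.5-fold, lower (blue) or higher (orange) in DKO, by distance to the nearest TSS (left) and by mean concentration (right). Dashed lines on the left stand at 12.4% and 5.45%, the shares over all autosomal sites, and black marks on the right give all autosomal sites of the same concentration. The blue bars exceed the blue line in every distance range and exceed the marks in every concentration range.

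Lower members outnumbered higher ones in every range of concentration. At 4 to 5, 21.7% were lower and 9.69% higher, beside 19.1% and 9.44% of all autosomal sites of that concentration. At 5 to 6, 15.4% of 3780 members were lower and 4.92% higher, against 12.3% of all autosomal sites of that concentration that were lower. At 8 and over, 10 of 210 members (4.76%) were lower and 5 (2.38%) were higher, beside 1.01% and 0.435% of all autosomal sites. Base composition went with the direction. In the bin of members with the lowest GC content, up to 42.4%, 22.1% were lower and 3.56% higher, and in the bin over 52.0% GC, 11.6% were lower and 7.67% higher. Over all autosomal sites the same GC bins gave 20.9% and 6.62% lower, and 3.85% and 4.35% higher. In members made of over 75% masked repeat, 10.3% of 974 were lower and 12.6% higher, with a median difference of 0.04 over these, and of all autosomal sites of that kind 11.0% were lower and 10.9% higher, with a median of 0.02. Members had a median GC content of 47.2%, against 50.0% over all autosomal sites and 64.0% within 1 kb of a TSS, and a median width of 370 bp.

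The median difference was lowest on chromosome 16. There 119 of 394 counted members (30.2%) were lower and 8 (2.03%) were higher, with a median difference of -0.38 over its 512 members, while all of its sites had a median of -0.17, also the lowest of the autosomes, and those within 1 kb of a TSS had one of -0.01. On the other autosomes the share of lower members ranged from 13.1% on chromosome 9 to 22.7% on chromosome 18. A stretch of chromosome 6 from 68.83 to 80.06 Mb had 59 members with a median difference of -1.11, of which 35 of 42 counted ones were lower and 0 higher, and the other 826 members of chromosome 6 had a median of -0.12. Shorter runs with a median of at least 0.5 below 0 lay on chromosomes 1, 16 and 19. Why these stretches stood lower was not tested. Without all of these runs 2025 members were lower and the median difference stayed at -0.14.

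Among members with a mean concentration of at least 6, the lowest differences were these. The site at chr6:148516580-148517080, 72 kb upstream of Tmtc1, a transmembrane protein of the endoplasmic reticulum that takes part in O-mannosylation, had a concentration of 7.74 in WT and 4.55 in DKO, a 9.13-fold difference. The site at chr11:25240410-25241390, in the desert between Bcl11a and Fancl and nearest to Gm12069, was at 7.28 and 4.30, and 94.6% of its 500 bp was masked repeat. The site at chr5:13188850-13189520, 208 kb from Sema3a, which encodes a secreted axon guidance cue, was at 6.92 and 4.12.

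A member at chr16:30155480-30156350, 90558 bp from the TSS of Hes1 and between Hes1 and Cpn2, was at 7.28 in WT and 4.69 in DKO. Hes1 encodes a bHLH repressor that is a target of Notch signalling. The other 3 counted members of that interval had differences from -0.66 to -0.15, and 2 of them were lower past 1.5-fold. The interval lies on chromosome 16, where 30.2% of counted members were lower and the median over members was -0.38. A member between Nr5a2, which encodes an orphan nuclear receptor active in pluripotent cells, and Ptprc, at chr1:137649880-137650760, was at 7.15 and 4.93. Of the other 23 counted members there, 5 were lower and 2 higher, so the interval held both directions. The members nearest to Mir146 (7.35 and 5.43), to Dkk2, which encodes a secreted modulator of Wnt signalling (7.23 and 5.39), and to Adgrg6, an adhesion G protein-coupled receptor (7.31 and 5.49), completed the lowest 8. In the intervals of the Tmtc1, Gm12069 and Sema3a sites the other members had medians of 0.35, 0.04 and 0.08, so at these the strong difference was that of 1 site and not of its neighbours.

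Of the highest differences among members with a mean concentration of at least 6, the first, at chr5:60231250-60232000 in the interval between Pcdh7 and G6pd2, was at 3.76 in WT and 6.88 in DKO, an 8.69-fold difference. Its 500 bp held 28 CpG dinucleotides, beside a median of 5 over members. The site at chr6:141577180-141577560, 52 kb upstream of Slco1b2, an organic anion transporter of liver, was at 4.57 and 6.70. It was the lone member of its interval. Sites nearest to Gm16070 (5.82 and 7.35), 1700034K08Rik (6.38 and 7.82), Cox7c (5.30 and 6.55) and Gm41259 (5.67 and 6.83) differed by 2.23-fold to 2.89-fold. The site at chr11:7423210-7424400, 210 kb upstream of Igfbp3, which encodes an insulin-like growth factor binding protein, had a WT concentration of 7.58 and reached 9.03 in DKO, the highest DKO level of those named here. Its interval held 14 other counted members with a median difference of 0.17 and 2 of them higher.

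**Figure D3:**
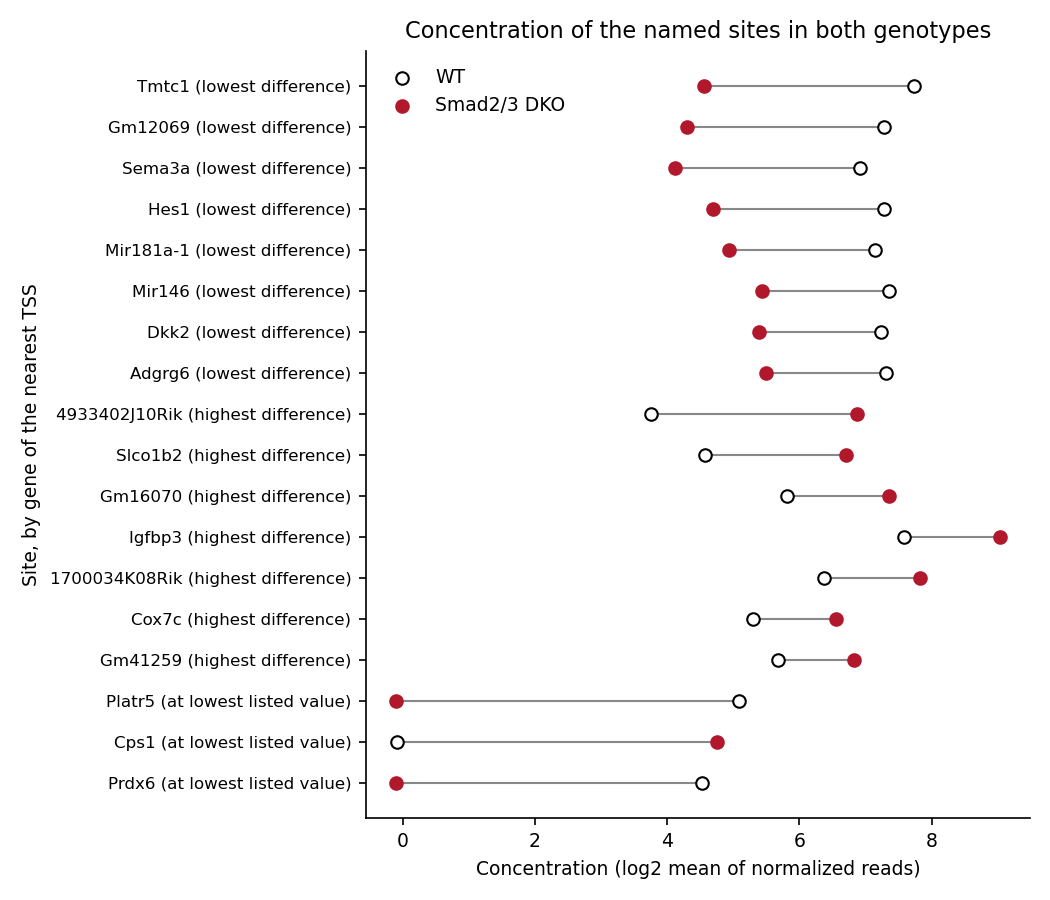
Concentration (x axis, log2 mean of normalized reads) in WT (open points) and Smad2/3 DKO (filled points) of the 8 members with the lowest difference, 7 of those with the highest, and 3 members at the lowest listed value in 1 genotype. Each line joins the values of 1 site, named on the y axis by the gene with the nearest TSS; the lowest 8 lie at 6.92 to 7.74 in WT and at 4.12 to 5.49 in DKO.

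Some members were listed at the lowest value, 32 of them in DKO alone, 13 in WT alone and 17 in both. In DKO 49 members of the 153 such sites in the whole table stood at -0.10, and 11 of these had a WT concentration of at least 4. In WT 30 members of 92 such sites stood at -0.09, and 1 of these had a DKO concentration of at least 4. Among them were a site 84890 bp from Platr5 (5.09 in WT, -0.10 in DKO), a site 319223 bp from Cps1 (-0.09 in WT, 4.75 in DKO) and a site 60500 bp from Prdx6 (4.52 in WT, -0.10 in DKO). No fold is given for these. The most accessible members differed little. The site nearest to Gm8579 on chromosome 6 was at 10.26 in WT and 10.18 in DKO, that nearest to Gm15627 at 9.99 and 9.72, that 135919 bp from Klf12, a Krüppel-like repressor, at 9.86 and 9.84, and that 64775 bp from Zfp958 at 9.76 and 9.74.

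Grouped by the protein-coding genes on either side, members fell into 2270 intervals of a median 244 kb. An interval held a median of 4 and at most 69 members, and 529 held a single one. In 520 intervals at least 8 members were counted, and the median of the interval's differences was below 0 in 397 and above 0 in 118, with quartiles of -0.28 and -0.01. It was past 1.5-fold below 0 in 19 intervals and above 0 in 1. Members past 1.5-fold lay in both directions in 208 of the 520 intervals, in the lower direction alone in 237, in the higher alone in 53 and in neither in 22.

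The interval between Reg3g and Gm20594 had the lowest median, -0.89 over 11 counted members, with 9 lower, and lay in the run of chromosome 6 given above. Between Prickle1, a planar cell polarity gene, and Adamts20, an extracellular metalloproteinase, all 8 counted members were below 0, from -2.45 to -0.24, and 6 were lower. The intervals between Gm12789 and Pde4b, a cAMP phosphodiesterase (median -0.73, 6 of 8 lower), between Bod1l and Cpeb2 (-0.72, 6 of 11 lower), and between Zfp352 and Elavl2, a neuronal RNA-binding protein (-0.70, 7 of 14 lower), followed. Between Isl1, a LIM homeodomain factor of heart and motor neuron progenitors, and Parp8, 10 of 18 counted members were lower and 0 higher, at WT concentrations from 4.37 to 8.03. The promoters there differed less, though the intervals and not the promoters were chosen for a low value. The site at the Isl1 promoter was at 9.26 in WT and 9.03 in DKO and that of Parp8 at 10.31 and 9.96, and at Prickle1 the pair of promoter sites stood at 7.33 and 7.40, and at 8.07 and 7.61.

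At the other end, the interval between Klhl29 and Apob, which encodes the main apolipoprotein of low-density particles, had a median of 0.65 with 6 of 11 counted members higher and 0 lower. Between Epm2a and Utrn, 8 of 9 counted members were above 0 and 4 were higher. The intervals between Ripk2 and Mmp16 (0.40), Tspyl5 and Mtdh (0.39), Smim31 and Marchf1 (0.37) and Gucy1a2 and Aasdhppt (0.37) had smaller medians, and those by Ripk2 and by Smim31 each also held 1 lower member. The promoter of Klhl29 was at 7.54 in WT and 7.94 in DKO, and that of Apob at 6.67 and 6.73.

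**Figure D4:**
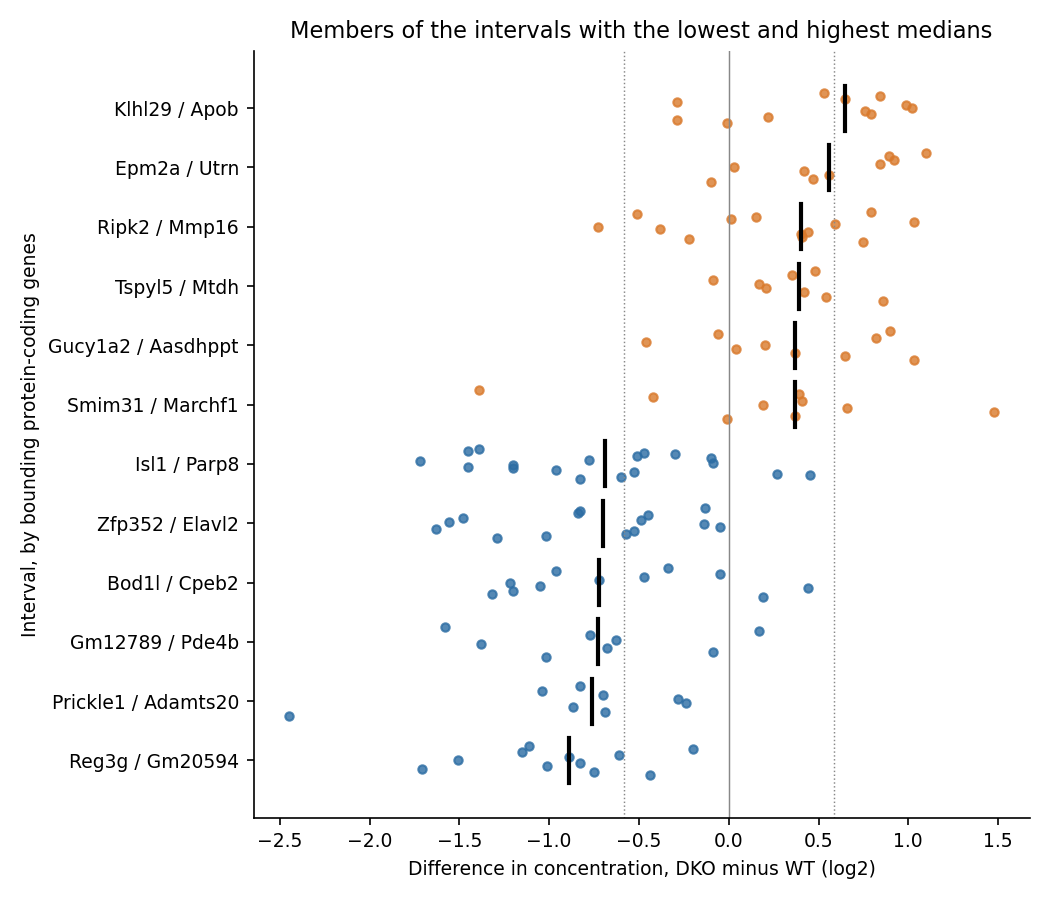
DKO minus WT difference (x axis, log2) of each member with a mean concentration of at least 4 (points) in the 6 intervals with the lowest and the 6 with the highest medians (black bars), named on the y axis by the bounding protein-coding genes. Solid and dotted lines mark 0 and 1.5-fold; between Zfp352 and Elavl2 all 14 points lie below 0, and between Klhl29 and Apob 8 of 11 lie above it.

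The intervals with the most members did not stand at these ends. The interval between Adam6a and Zfp386 held 69 members with a median of -0.17 over 36 counted, those between Auts2 and Castor2 and between Gm4868 and Tmem132c held 66 each with medians of -0.26 and -0.21, that between Nmbr and Cited2 held 53 with a median of 0.12, and that between Adcyap1 and Mettl4 held 48 with a median of -0.20. Counted by nearest TSS, members belonged to 3601 genes, and 67.7% of members were nearest to a protein-coding one. Adcyap1, which encodes the neuropeptide PACAP, had the most at 43, with 32 counted, 8 lower and 2 higher. Others with many members were Auts2 (33, 25 counted, 8 lower, 1 higher) and Gm15627 (33, 30 counted, 4 lower, 0 higher). Gm33347 (29, 25 counted, 6 lower, 1 higher) and Mir21c (29, 23 counted, 9 lower, 2 higher) followed. Cox7c, a subunit of cytochrome c oxidase, had 28, with 18 counted, 0 lower and 5 higher. Pik3c3, a lipid kinase that acts in autophagy, had 28, with 21 counted, 2 lower and 4 higher. The direction at Cox7c and Pik3c3 differed from that of the other 5 named, with medians of 0.34 and 0.22 against -0.33 to -0.22. Unlike the interval medians, these are over all members of the gene, those below a concentration of 4 included. In the interval between Rasa1 and Cox7c, the 19 counted members other than the named site had a median of -0.03, with 0 lower and 1 higher.

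Promoters of the bounding genes had smaller differences than the members between them. In 509 of the 520 intervals at least 1 bounding gene had a site within 1 kb of its TSS. The strongest such site stood for each gene, and where both genes had one their differences were averaged. These promoter averages had a median of -0.08. Across intervals they had a Pearson correlation of 0.42 with the members' median, over points that share libraries and chromosomes. Averaging can hide a larger difference at 1 promoter. In the 18 of these intervals whose members' median was past 1.5-fold below 0, the promoter averages had a median of -0.23. Of these averages 17 were below 0 and 0 were past 1.5-fold. Of all 509 averages 4 were past 1.5-fold below 0, and 3.05% of counted sites within 1 kb of a TSS were lower. The 18 intervals were picked for their members' low medians and not for their promoters. A smaller difference at these promoters is thus in part built into the choice. In the 116 whose members' median was above 0, the promoter averages had a median of 0.02.

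Members beside genes of the Nodal and activin pathway were described next, taking the protein-coding gene on either side. Of 27 genes for ligands, receptors, effectors and feedback, 12 bounded a member, and 8 of 58 counted members (13.8%) were lower and 1 was higher. Acvr2a, a type II receptor for activin and Nodal, had the most, with 29 members of which 4 were lower and 0 higher. The lowest of them, 2148 kb from Acvr2a, was at 4.60 in WT and 3.16 in DKO. Tgfbr2, the type II receptor for TGF-beta, had 15 members, all counted, with 0 lower and 1 higher (3.42 and 4.75). Inhba, which encodes the subunit of activin A, had 1 of 4 counted members lower. Inhbb, the subunit of activin B, had 6 counted within 1.5-fold. The other 3 lower members, named after their values were seen, were both counted members by Smad4, the partner of Smad2 and Smad3 (6.27 and 5.54, and 6.81 and 6.21), and 1 of 2 by Smad2. The share of lower members was below the 17.5% of all members. The Acvr2a, Inhba and Inhbb promoters differed by -0.10, -0.11 and 0.01. That of Tgfbr2 differed more, at 7.81 in WT and 7.28 in DKO, and that of Smad7 differed by -0.39.

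For the BMP pathway and its Id targets, 19 of 103 counted members (18.4%) were lower and 4 (3.88%) were higher, beside 17.5% and 6.44% of all members. Bmp2, a ligand, had 48 members with 8 lower and 0 higher. They lay on both sides of it, among them 1 toward Fermt1 at 7.29 in WT and 6.50 in DKO and 1 toward Hao1 at 7.52 and 6.92. Bmper, a secreted modulator of BMP signalling, had 2 of 14 counted lower (6.07 and 4.57 at the lowest). Nog, which encodes the antagonist Noggin, had 3 of 9 lower and 1 higher. Bmp7 shared its 10 members with Tfap2c on the other side, and all 5 counted were within 1.5-fold, from -0.10 to 0.25. Id2, a target of BMP signalling named after its values were seen, had 3 of 5 lower. The strongest, at 7.39 and 6.24, lay 972 kb from Id2 and was nearest to Gm29687. The Id2 promoter was at 6.96 in WT and 6.94 in DKO. Id4, another Id target, went the other way, with 0 of 3 counted lower and 1 higher (5.54 and 6.24). Its promoter was at 6.94 in WT and 7.29 in DKO. Bmp4 and Chrd also had 0 lower and 1 higher each.

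Genes of naive pluripotency had 9 of 72 counted members (12.5%) lower and 7 (9.72%) higher, beside 17.5% and 6.44% of all members. Nr5a2, with 37 members, held both the site at 7.15 in WT and 4.93 in DKO given above and, 466 kb from the gene, one at 2.58 and 5.01, and in all 6 were lower and 3 higher. Tet2, a 5-methylcytosine dioxygenase, had 2 of 14 lower and 1 higher, and Klf5 had 1 of 10 in each direction. At Tbx3 all 3 counted members were within 1.5-fold. Core pluripotency genes had 1 of 12 counted members lower and 3 higher. Of these, Sox2 had 1 of 6 lower and 2 higher, and Zfp281 had 1 of 6 higher (4.50 and 5.39) and 0 lower. That higher site lies between Zfp281 and Nr5a2 and is counted in both the core and the naive list. Sall4 had 1 member, below the concentration of 4.

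Primed epiblast genes had 0 of 36 counted members lower and 3 (8.33%) higher, beside 17.5% and 6.44% of all members, with a median difference of 0.04 over those counted. Cdh2, N-cadherin, had 28 members, 17 counted, with 2 higher (4.01 and 5.03 at the highest). Foxd3, a forkhead factor of the primed epiblast and neural crest, had 16, 11 counted, with 1 higher. This site, 87 kb from Foxd3, stood at 2.39 in WT and 4.75 in DKO, and the other 10 counted lay between -0.38 and the fold. Sox4 had 5 counted from -0.47 to 0.21. Otx2, a homeodomain factor that drives the primed state, had 3, all counted, from 0.01 to 0.16, the highest of these at 7.15 in WT and 7.31 in DKO.

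Genes of the primitive streak and mesoderm had 8 of 40 counted members (20.0%) lower and 0 higher, beside 17.5% and 6.44% of all members. Sp8 had 27 members, 4 of 21 counted lower. Eomes, a T-box factor that acts downstream of Nodal in mesendoderm, had 4 counted, all below 0, with 2 lower. The lowest, at chr9:118271590-118272010 and 206 kb from Eomes, was at 5.36 in WT and 3.80 in DKO. Gsc, a homeobox gene of the anterior streak, had 4 counted, all below 0, with 2 lower, the lowest at 5.04 and 3.87 and 195 kb from the gene. The least different was at 6.17 and 5.96. The Eomes promoter was at 8.69 and 8.46 and that of Gsc at 6.33 and 5.95. Tbx20 had 2 counted, at -0.43 and -0.24.

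Endoderm genes had 11 of 62 counted members (17.7%) lower and 5 (8.06%) higher, beside 17.5% and 6.44% of all members. Foxa2, a forkhead factor of the anterior streak and definitive endoderm, had 34 members and a median of -0.40 over 29 counted, with 6 lower and 0 higher. The strongest of the lower ones at a mean of at least 5, at chr2:148206480-148206900 and 160 kb from Foxa2, was at 6.50 in WT and 5.73 in DKO, and its promoter was at 9.13 and 8.74. Cxcr4, a chemokine receptor of definitive endoderm, had 2 of 8 lower, the lowest at 5.64 and 3.09 and 156 kb away. Dab2, an endocytic adaptor of extra-embryonic endoderm, had 2 of 11 in each direction. The lowest, at 4.92 and 2.50, lay 956 kb from Dab2 and was nearest to Ptger4. The highest, at 5.67 and 6.83, lay 308 kb from Dab2. Sox17 had 0 of 5 lower and 1 higher (3.47 and 4.94). Foxa2 and Cxcr4 had lower members and no higher ones, and Sox17 the reverse, on few sites. At Sox17 it was 1 of 5 counted, with a median of 0.14, and at Cxcr4 2 of 8. Over the whole list both shares were near those of all members.

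The list of trophoblast and extra-embryonic ectoderm genes had the largest share of lower members of the lists, 20 of 70 counted (28.6%), with 4 higher (5.71%), beside 17.5% and 6.44% of all members. By nearest TSS alone, the list turned around, with 1 of 15 counted members lower and 3 higher. Of the 20, 11 lay by Satb1, which encodes a chromatin organiser, out of 20 counted by that gene, and 6 by Gata3, a zinc finger factor of trophectoderm, out of 23. The strongest lower member by Satb1, toward Tbc1d5, was at 8.74 in WT and 7.49 in DKO. The lowest was at 5.60 and 3.65, and the member that was higher was at 5.93 and 6.56, while the Satb1 promoter was at 8.22 and 8.27. By Gata3 a pair of adjoining sites about 1389 kb away was at 5.57 and 4.04, and at 6.34 and 4.83. Of its 23 counted members 3 were higher, the highest at 5.74 and 6.74. Fgfr2, a receptor for fibroblast growth factors, had 3 of 14 lower and 0 higher, with the lowest 61 kb from the gene at 5.37 and 2.76. The members of Tfap2c are those of Bmp7 above.

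Early neural genes had 26 of 162 counted members lower and 9 (5.56%) higher, both shares below the 17.5% and 6.44% of all members. Meis1, a homeodomain cofactor, had 38 members with 4 of 32 lower and 1 higher. Zic1, a zinc finger factor of neural plate, had 6 of 18 lower and 0 higher, with a median of -0.44, from 4.90 and 2.39 at the lowest, 223 kb from the gene. Pou3f2, a POU factor, had 3 of 23 lower and 1 higher, among them sites at 7.63 and 6.25, and at 7.61 and 6.66. Meis2 had 2 of 19 lower. Wnt pathway genes had 10 of 64 (15.6%) lower and 4 (6.25%) higher, beside 17.5% and 6.44% of all members. Rspo3, a secreted activator of Wnt signalling, had 3 of 17 lower and 1 higher, and Fzd10, a receptor, had 2 of 10 lower. Axin2, a negative feedback target, had 1 in each direction, at 6.24 and 5.54 and at 4.76 and 5.56, about 3 kb apart. Lef1, a DNA-binding partner of beta-catenin, had 2 of 8 lower.

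Genes of the FGF and ERK pathway had 14 of 101 counted members (13.9%) lower and 5 (4.95%) higher, beside 17.5% and 6.44% of all members. Etv1, an ETS factor, had 5 of 23 lower and 0 higher, and Fgf10, a ligand, 3 of 21 lower and 1 higher. Spred2, a feedback inhibitor, had 0 of 18 lower and 1 higher with a median of 0.28, and Fgf9 had 2 of 11 in each direction. Members between Meis1 and Spred2 are counted by both genes, in the neural list and in this one. For adhesion and extracellular matrix genes 14 of 78 (17.9%) were lower and 2 (2.56%) higher, against the same shares of all members. Cdh11, a cadherin of mesenchyme, had 9 of 35 counted members lower. Among them were sites at 7.15 and 5.73, 78 kb from the TSS of Cdh11, and at 6.97 and 5.95, nearest to 1600027J07Rik. A further one, at 7.44 and 5.98, lay 1129 kb from Cdh11 and was nearest to Cdh5. Itgb1, the beta 1 integrin, had 3 of 13 lower, from 6.71 and 4.94 at the lowest, 86 kb from the gene. Fn1, fibronectin, had 1 of 4 lower (4.84 and 3.00). Fibroblast markers had 3 of 32 counted members lower (9.38%) and 1 higher, with 1 of 14 by Dcn (5.60 and 4.46) and 1 of 8 in each direction by Postn. Cdh2 stands in the adhesion list too, with the values given above, and the markers of pluripotent cells, which repeat Sox2 and Otx2, had 1 of 9 lower and 2 higher.

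Strings of known binding motifs were counted in the 500 bp around each midpoint, on both strands. Those of pluripotency and Smad partner factors were the POU octamer ATGCAAAT, bound by Oct4 and its relatives, the FoxH1 string TGTGGATT and the Smad palindrome GTCTAGAC. The Sox string CATTGT is read by Sox2 and other members of that family. The forkhead string TGTTTAC belongs to the wider forkhead family. The Otx2 string GGATTA is the common site of homeodomain factors of that type. The Klf string GGGNGNGGC and the Esrrb string TCAAGGTCA stand for factors of the naive state. For factors of other lineages and general activators, the strings were GCCNNNGGC for Tfap2, a family with roles in trophoblast, and for the bZIP family AP-1 the string TGANTCA with any base in its middle. Tead factors, which act with the cofactor Yap, were searched as GGAATG. Factors of the Gata family, which act in endoderm and trophoblast among others, were searched as AGATAA. Zic factors of the epiblast and neural plate were searched as CAGCAGG. The CCAAT box of the general factor NFY and the core of the insulator protein CTCF completed the set. The FoxH1 and Otx2 strings share a run of bases and can overlap. A match is not evidence of binding.

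FoxH1, the forkhead partner of Smad2 and Smad3, had its string in 2.42% of members and 1.85% of all autosomal sites. It was in 4.51% of lower members, 2.19% of those within 1.5-fold and 1.05% of higher ones, and past 2-fold in 7.02% of the lower and 0 of the 196 higher. Of 298 counted members that hold it, 93 (31.2%) were lower and 8 (2.68%) were higher, with a median difference of -0.32. Of those without it 17.1% and 6.53% were. The 3 shown above were at 6.89 in WT and 5.24 in DKO (Lrrc3b), 7.02 and 5.74 (Robo1) and 7.24 and 5.97 (9530026F06Rik). Over all autosomal sites 24.6% of those with the string were lower and 12.2% of those without it. Within each of the 5 GC bins the string was more frequent in lower members than in those within 1.5-fold, from 3.62% and 3.12% in the bin of lowest GC to 5.74% and 2.77% in the middle one.

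The POU octamer, the site of Oct4 and related factors, was in 9.46% of lower members, 5.43% of those within 1.5-fold and 4.47% of higher ones, and in 4.37% of all autosomal sites. Of 717 counted members that hold it 27.2% were lower, against 16.8% of the rest, and over all autosomal sites the shares were 21.6% and 12.0%. The site shown above near Mir146 was at 7.35 in WT and 5.43 in DKO. Of 29 counted members with both the octamer and the FoxH1 string, 9 were lower and 1 was higher. By GC bin the octamer was at 13.0% of lower members and 6.56% of those within 1.5-fold at the lowest GC content, and at 3.02% of both at the highest.

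Other strings differed less or the other way. The Otx2 string was in 17.5% of lower, 15.8% of within and 15.7% of higher members, and Sox in 27.8%, 25.4% and 28.2%. Tead strings were in 30.3% of lower and 35.7% of higher members, and Tfap2 in 9.32% and 17.4%. The higher members had a median GC content of 48.2% against 45.8% in the lower, and a median masked share of 32.1% against 15.4%. Within GC bins Tead strings were in 32.4% of lower and 29.2% of higher members at the lowest GC content. At the highest these shares were 22.3% and 17.0%. In the bins between, Tead strings were more frequent in the higher members. Within GC bins Tfap2 strings were in 18.9% of lower and 31.2% of higher members at the highest GC content, in 9.88% and 20.5% in the next bin, and in 3.25% and 3.37% at the lowest. The CTCF core was in 5.95% of members within 1.5-fold, 3.25% of lower and 1.84% of higher ones, and of the 616 counted members that hold it 10.9% were lower and 2.27% higher. The Smad palindrome was in 0.353% of members, 4 of the lower and 4 of the higher. Zic strings were in 27.7% of lower and 22.1% of higher members, Gata in 26.4% and 21.1%, AP-1 in 15.2% and 19.5%, forkhead in 9.85% and 9.74%, Klf in a like share of both, up to 15.8%, Esrrb in 0.776% and 1.32%, and the CCAAT box in 53.9% and 56.3%. Over all autosomal sites, in windows of the same length, the shares were 14.4% for Otx2, 20.7% for Sox, 26.6% for Tead, 20.1% for Tfap2, 5.60% for the CTCF core, 0.397% for the Smad palindrome, 23.0% for Zic, 18.8% for Gata, 13.6% for AP-1, 7.08% for forkhead, 24.6% for Klf, 0.861% for Esrrb and 49.3% for the CCAAT box.

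**Figure D5:**
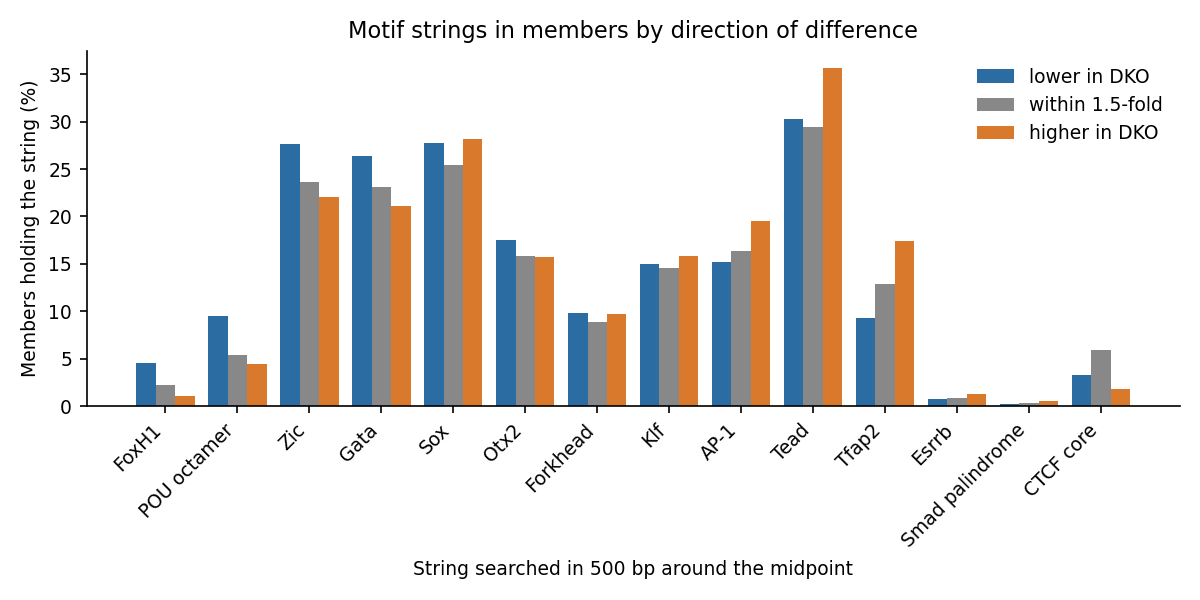
Percent of members that hold each string in 500 bp around the midpoint (y axis), for members lower in DKO past 1.5-fold (blue), within 1.5-fold (grey) and higher (orange). FoxH1 and the POU octamer stand highest in the lower members, at 4.51% and 9.46%, Tead and Tfap2 in the higher, at 35.7% and 17.4%, and the CTCF core in those within 1.5-fold, at 5.95%.

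Neighbouring members differed in weakly related ways. Pairs of adjacent counted members under 5 kb apart had a Pearson correlation of 0.20 in their differences over 1327 pairs, and those over 50 kb apart 0.11 over 5223 pairs, as a description of sites that share libraries. Of the neighbours of a lower member under 5 kb away 29.0% were lower, and 22.8% over 50 kb away. For higher members the shares of higher neighbours were 13.4% and 9.54%. Over all counted members 17.5% were lower and 6.44% higher.

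At the limits of the choice, the members just inside 50 kb lay by C130026L21Rik at 50011 bp (3.05 in WT and 3.59 in DKO) and by 4933405E24Rik at 50013 bp (6.04 and 5.44). The sites just outside lay by Mmp2 at 49992 bp (5.28 and 5.71) and by Pdc at 49987 bp (6.08 and 5.91). Those just inside 500 kb lay by Gm28590 at 499875 bp (5.70 and 5.21) and by Gm12633 at 499741 bp (6.29 and 6.24), and those just outside by Slc8a1 at 500128 bp (5.27 and 4.69) and by Cdh18 at 500317 bp (4.71 and 4.25).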

How the data were processed

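ATAC-seq libraries of WT and Smad2/3 DKO EpiLCs, 3 differentiations each, and 1 Tn5 control were compared. Per the labels and the methods, the authors mapped read pairs with Bowtie2 to the mm10 build and kept uniquely placed reads outside blacklisted regions, with duplicates taken out by SAMtools. DANPOS2 gave the sites, from the replicates against the Tn5 control, and DiffBind gave the values. Versions, the normalization and any Tn5 shift are not given in the sources used here. The deposited table holds log2 concentrations, computed by the authors over both genotypes and within each. Its fold, p-value and FDR columns are the authors' comparison and were not used. With no value per library, depth and counting intervals are unknown.

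DKO minus WT differences were computed from the deposited log2 values and called past 1.5-fold at a mean concentration of at least 4. Positions used 45756 curated RefSeq transcripts of 26180 genes in GRCm38.p6, the same build. Named were the 8 lowest and 8 highest members at a mean of at least 6, the 4 strongest, 3 at the lowest listed value, the 6 lowest, 6 highest and 5 fullest intervals, up to 4 genes per list, the 8 nearest-TSS genes with the most members, and 2 sites at each limit. One item that this rule names is not reported here. Members and lists were chosen with earlier results of these data known. Scripts were tested on simulated data. Python 3.11.15, numpy 2.4.6, pandas 2.3.3 and matplotlib 3.10.9 were used.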

Additional observations from a re-analysis of the deposited data

How the results depend on the processing

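No paired analysis was possible because the table holds no value per library, and for the same reason no replicate could be left out. The median difference was below 0 in all 11 alternatives. It was -0.06 when differences were centred on the median of all autosomal sites, which is -0.08, and that centring gave 63.3% lower among members past 1.5-fold. A mean concentration of at least 5 gave 940 lower and 260 higher members (78.3% lower), of at least 6 gave 359 and 74 (82.9%), and no minimum gave 3223 and 1520 (68.0%). Past 2-fold there were 727 and 196 (78.8%), and past 4-fold 66 and 12 (84.6%). Predicted transcripts, coding transcripts, whole sites, the runs, and, chosen after seeing the data, the run of chromosome 6 or all of chromosome 16 left out kept every count within 1.5 times. By nearest TSS alone, the median of the list reversed for the Nodal and activin genes (0.01), the trophoblast genes (0.13) and the FGF and ERK genes (0.11). The cause was not tested. With 300 bp windows, FoxH1 was in 3.35% and the octamer in 7.23% of lower members.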
